A study of Homo sapiens with 12 samples.

Results

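The genes described here are the kinases PDK1, PDK2, PDK3 and PDK4, the phosphatases PDP1 and PDP2 and the core subunits PDHA1, PDHB and DLAT of the pyruvate dehydrogenase complex, together with the kinase PDPK1. They were found by gene name in the authors' table of counts, which held 1 row for each of the 10 among 20212 genes. PANC-1, an established human pancreatic cancer cell line, was grown in serum-containing medium and received either DMSO, the solvent, or 50 nM rapamycin for 60 min. Each treatment had 3 cultures, called replicates 1 to 3, and each culture gave 1 library of ribosome footprints (RF) and 1 of total RNA, so there were 12 libraries. RF are the mRNA fragments that a ribosome shields from nuclease, and the translation efficiency (TE) of a gene is its RF level relative to its total RNA. All cultures were of 1 cell line at 1 dose and 1 time, so the values stand for this line only. In bulk libraries, fewer cells with an mRNA and less of it per cell cannot be told apart.

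The pyruvate dehydrogenase complex sits in the mitochondrial matrix and converts pyruvate, the end product of glycolysis, into acetyl-CoA for the citric acid cycle. The PDK kinases phosphorylate its E1 alpha subunit and switch the complex off, and the PDP phosphatases remove that phosphate and switch it on again, so the balance between them sets how much pyruvate is oxidised. PDPK1 has no part in this complex. It is the membrane-recruited kinase that phosphorylates the activation loop of AKT, S6K and related kinases, and signalling papers often call it PDK1 as well. Rapamycin inhibits mTORC1, the kinase complex that drives the translation of mRNAs with a 5′ terminal oligopyrimidine (TOP) tract, a C followed by a run of pyrimidines at the very start of the mRNA.

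To show whether the mRNAs described here start with such a tract, the first 20 bases of the protein-coding isoform with the most total RNA are given from the GRCh37 sequence and the GENCODE annotation, 5′ to 3′, with the first 5 bases in capitals. Each lies in the 5′ untranslated region.
PDK1, chr2:173420779-173420798, plus strand: GATCCccgcccctgctgccc
PDK2, chr17:48172101-48172120, plus strand: CTTTTcctgagccgcttgga
PDK3, chrX:24483403-24483422, plus strand: GCTGTcctggagctgctgct
PDK4, chr7:95225809-95225828, minus strand: AAGACttgaacttgaatctc
PDP2, chr16:66914418-66914437, plus strand: CTTCTggagctgggtcctga
PDHA1, chrX:19362045-19362064, plus strand: GGTGCgactgaggcgtggcg
PDHB, chr3:58419540-58419559, minus strand: AGCGGatagaggacacgacc
DLAT, chr11:111896164-111896183, plus strand: GTTGGttttggggtgtgggg
PDPK1, chr16:2588022-2588041, plus strand: ATTGCtggggctccgcttcg
PDK2 and PDP2 began with a C followed by at least 4 pyrimidines, and the other 7 sequences shown did not. Among the 12822 tested genes with a matched isoform, 4.20% began this way. The start is the annotated one and was not measured in PANC-1, so a match describes the annotation only. Each sequence is of 1 isoform, with a share of the gene's isoform RNA in DMSO from 7.74% in PDHA1 to 95.7% in PDK4. In PDHA1 another coding isoform, ENST00000355808, exceeded the isoform shown in DMSO replicates 1 and 3. PDK1 had a 5′ leader of 100 bases and PDPK1 one of 92 bases, whose GC content was 80.4%. The median leader of the tested genes was 133 bases long with 66.1% GC. PDK2 had the longest leader of the 9, 391 bases, and it was the 1 among them with an ATG upstream of the coding sequence, as 41.8% of tested genes have. This leader is that of ENST00000007708, whose coding sequence of 1029 bases is shorter than the 1221 bases of ENST00000503176, another expressed PDK2 isoform.

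Depth limited the RF values. The DMSO RF libraries, in order of replicate number, held 303220, 881106 and 1574723 reads on genes and those of rapamycin 1255675, 792690 and 278835, against 78081241 to 94293744 in the RNA libraries. Where a library holds 0 reads of a gene, up to 3 remain possible, that is 1.91 to 10.8 CPM (counts scaled to library size) in RF and at most 0.0384 CPM in RNA. These limits cover counting error only. DMSO RNA replicates 1 and 2 stood apart from the other RNA libraries in detecting 16840 and 16858 genes against 19751 to 19847, with 0 counts for many low genes. The 10 genes had at least 264 RNA counts in each library. In total RNA, 8 of 9 ductal and epithelial markers exceeded 1 CPM on average, with CFTR near 0, and their sum was 7901 to 8028 CPM in DMSO and 7654 to 7978 in rapamycin. None of the 5 acinar and 4 endocrine markers exceeded 1 CPM. CD68, also expressed by many cancer cells, and COL3A1 were the leukocyte and fibroblast markers above 1 CPM.

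Among the 10 genes, PDK1 stood highest in TE change. Its RF level was higher in all 3 rapamycin cultures than in any DMSO culture while its total RNA was nearly the same, but the change did not pass the threshold of the test across all genes. PDP1 came next, without a separation of the cultures. In edgeR's quasi-likelihood test, 0 of the 10 TE changes had a Benjamini-Hochberg adjusted p under 0.05 in either direction, and the same held for all 13329 genes tested, with a percentage called of 0 for higher and 0 for lower and a smallest adjusted p of 0.181. PDK1 and PDP1, 2 of the 10, had an unadjusted p under 0.05 and a higher TE, beside 6.16% of all genes, and 0 of the 10 had such a p and a lower TE, beside 6.43%. By the Wald test of DESeq2, TE was higher in 654 genes, among them PDK1 and PDHB, and lower in 582. On RF alone the Wald test called 4 genes higher and 1 lower. The edgeR and DESeq2 tests of TE fit 1 spread per gene to RF and RNA alike. RF varied more, so their TE p-values can be too small. The log2 TE of the cultures did not overlap in 1 of the 10 in the higher direction, PDK1, beside 4.78% of all genes, and in 0 in the lower direction, beside 6.18%. The TE change was positive for 5 of the 10, beside 46.3% of all genes, and negative for 5. The median log2 fold change was 0.08 against -0.06 over all genes.

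**Figure D1:**
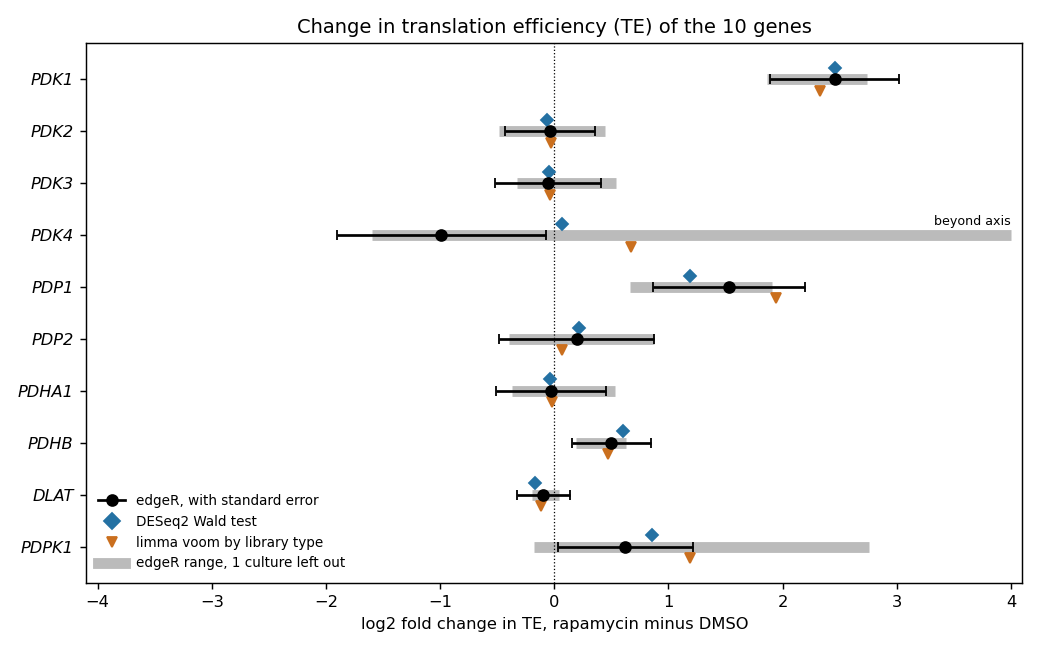
Change in TE of the 10 genes after rapamycin, as log2 fold change (x axis). Black points are edgeR with a standard error derived from its F statistic. Blue diamonds are DESeq2's Wald test, and orange triangles are limma voom with a variance for each library type. Grey bars span the edgeR values with 1 culture left out in turn. PDK1 lies at 2.45 and its bar stays between 1.86 and 2.73, while the bars of 7 genes cross 0 and that of PDK4 runs off the axis.

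PDK1 (ENSG00000152256, chr2:173420101-173473397) encodes pyruvate dehydrogenase kinase 1, the hypoxia-responsive member of the family. Here and in what follows values are given in the order of replicates 1, 2 and 3. PDK1 had 3, 1 and 6 RF reads in DMSO and 35, 14 and 3 in rapamycin. Scaled by TMM, edgeR's correction for library composition, these were 9.18, 1.25 and 4.06 CPM in DMSO and 28.9, 16.9 and 9.93 CPM in rapamycin. The cultures did not overlap, but the margin was narrow: the highest DMSO and the lowest rapamycin library were the shallowest of their treatments and held 3 reads each. Unscaled, these were 9.89 CPM with an exact 95% interval of 2.04 to 28.9 and 10.8 CPM with one of 2.22 to 31.4, so counting error alone covers the gap between them.

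The mean RF level of PDK1 was 4.83 ± 4.02 CPM in DMSO and 18.6 ± 9.62 CPM in rapamycin (SD, n = 3 cultures, as for all means here). Footprints alone gave a log2 fold change of 2.13 with a standard error (SE) of 0.997 in edgeR's test, with an unadjusted p of 0.0476 and an adjusted p of 0.9997. Of the 13329 genes, 0.0075%, the transcription factor gene RAI1, was called higher in RF and 0% lower. PDK1 was the 1 of the 10 with a higher RF at an unadjusted p under 0.05, beside 1.76% of all genes, and also the 1 whose RF cultures did not overlap in the higher direction, beside 5.24%. In the lower direction 0 of the 10 did so, beside 4.34%.

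Total RNA of PDK1 was 38.5, 39.6 and 39.7 CPM in DMSO and 39.9, 44.3 and 38.7 CPM in rapamycin. These values overlapped, with means of 39.3 ± 0.699 and 41.0 ± 2.97 CPM and a log2 fold change of 0.06 (edgeR adjusted p = 0.772). Per culture, the log2 TE of PDK1 was -1.73, -3.43 and -2.61 in DMSO and -0.35, -1.20 and -1.65 in rapamycin. The highest DMSO value lay just under the lowest rapamycin value. The exact permutation p, two-sided, was 0.1, the smallest that 3 cultures against 3 can give. In the joint model of RF and RNA, the log2 fold change in TE was 2.45 with an SE of 0.564, or 5.48-fold (edgeR unadjusted p = 0.000645, adjusted p = 0.222). This model fits 1 spread per gene to RF and RNA alike, and its SE lies below the 0.997 of RF alone. The p and the rank by it can therefore be too strong. PDK1 ranked 38th of 13329 genes by p in this test and 466th in the test of RF alone. The study singled PDK1 out from these same libraries, so its direction here is not independent evidence. DESeq2's Wald test gave 2.46 with an adjusted p of 0.000277. On footprints alone the Wald test gave 2.15 with an adjusted p of 0.9995. Without both shallowest RF cultures edgeR gave 2.88 with an adjusted p of 0.681. With a variance of its own for each library type, limma voom gave 2.33 with an SE of 0.865, an unadjusted p of 0.0177 and an adjusted p of 0.709. With the culture as a block, so that each RF library was set against the RNA library of the same number, edgeR gave 2.14 with an unadjusted p of 0.0340 and an adjusted p of 1.

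**Figure D2:**
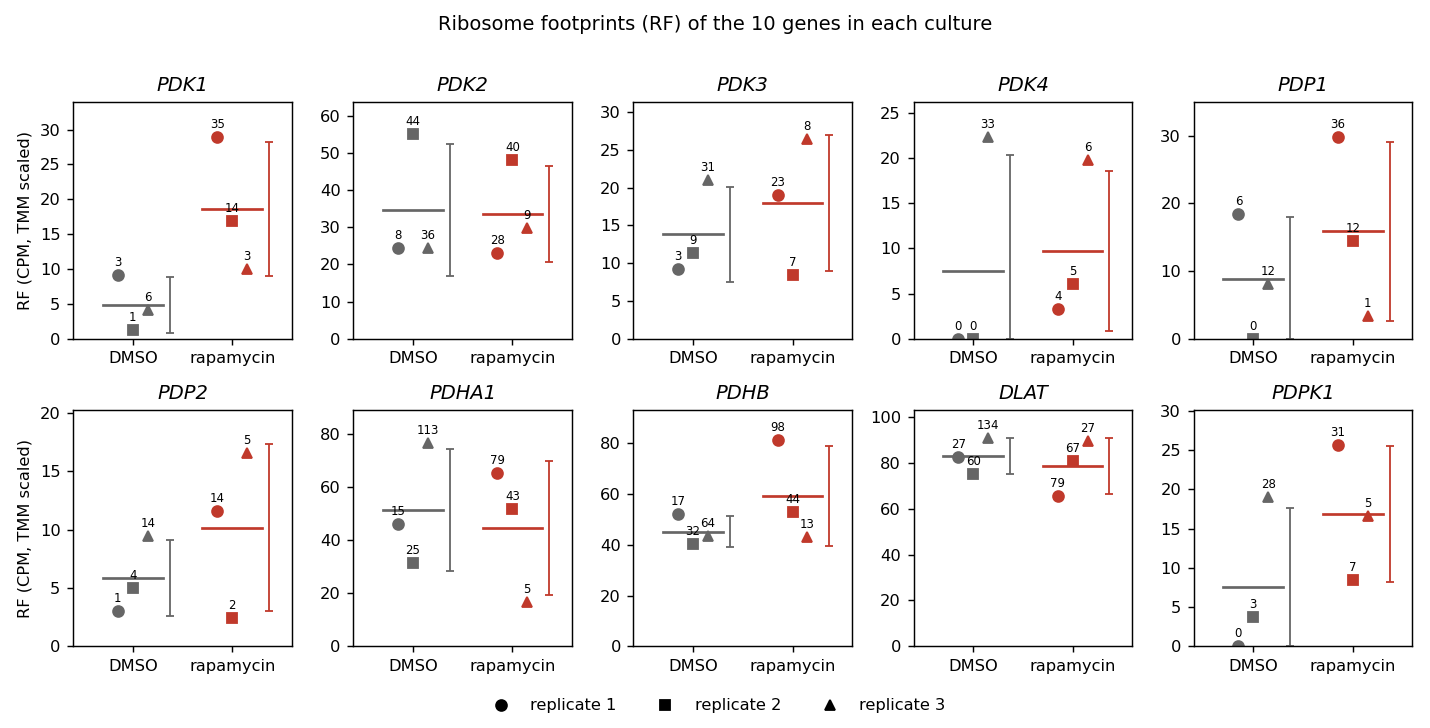
RF level of each gene in each culture (y axis, TMM-scaled CPM, linear, from 0), with the raw read count above each point. Horizontal lines are means and vertical bars are SD, with the lower end stopped at 0. PDK1 is the panel in which the 3 rapamycin cultures, from 9.93 to 28.9 CPM, all lie above the 3 DMSO cultures.

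PDK2 (ENSG00000005882, chr17:48172101-48189516) is the most widely expressed kinase of the family. It had 8, 44 and 36 RF reads in DMSO and 28, 40 and 9 in rapamycin, or 34.7 ± 17.7 and 33.7 ± 13.0 CPM. Replicate 2 was the highest in both treatments and the groups overlapped throughout. Its log2 change in TE was -0.04 with an SE of 0.395 (edgeR adjusted p = 0.980), and that in total RNA, 15.8 ± 0.157 CPM in DMSO and 15.7 ± 0.775 in rapamycin, was -0.01.

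PDK3 (ENSG00000067992, chrX:24483361-24568583), the kinase least sensitive to inhibition by pyruvate, had 3, 9 and 31 RF reads in DMSO and 23, 7 and 8 in rapamycin. Its level was 13.8 ± 6.30 CPM and 18.0 ± 9.07 CPM, with overlapping cultures. The log2 change in TE was -0.05 with an SE of 0.465 (edgeR adjusted p = 0.978).

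PDK4 (ENSG00000004799, chr7:95212811-95225828, minus strand) is the kinase induced by fasting, glucocorticoids and FOXO factors. It had 0, 0 and 33 RF reads in DMSO and 4, 5 and 6 in rapamycin, so DMSO replicate 3 held all of its DMSO footprints. Its log2 change in TE was -0.99 with an SE of 0.918 (edgeR adjusted p = 0.699), whereas its mean log2 TE per culture was -1.21 ± 2.01 in DMSO and -0.30 ± 1.04 in rapamycin, which is the opposite direction. Without DMSO replicate 3 the fitted change was 11.18, a value set by 0 reads in the remaining DMSO libraries that bounds nothing. No direction can be given for PDK4 at this depth.

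Together the 4 kinases summed to 42.9, 67.7 and 71.8 RF CPM in DMSO and to 74.4, 79.5 and 86.0 CPM in rapamycin, which did not overlap. Without PDK1 the sums were 33.7, 66.4 and 67.7 CPM against 45.5, 62.6 and 76.1 CPM, which overlapped. Of the RF reads of the 4 kinases, PDK1 held 21.4%, 1.85% and 5.66% in DMSO and 38.9%, 21.2% and 11.5% in rapamycin. DMSO replicate 1, whose share rests on 3 of 14 reads (exact 95% interval 4.66% to 50.8%), lay within the rapamycin range, and the other DMSO cultures lay below it. In total RNA, PDK1 held 55.1% to 56.3% of the kinase reads in DMSO and 54.8% to 58.2% in rapamycin. Reads are not corrected for length. Of the summed FPKM of the 4 kinases, PDK1 held 33.0% in DMSO and 34.2% in rapamycin, against 50.2% and 48.9% for PDK2. Gene FPKM includes transcripts not annotated as protein-coding. Whether the TE change of PDK1 differs from those of its paralogs was not tested.

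PDP1 (ENSG00000164951), the calcium-stimulated phosphatase, had 6, 0 and 12 RF reads in DMSO and 36, 12 and 1 in rapamycin. Its RF level was 18.4, 0 and 8.13 CPM in DMSO and 29.8, 14.4 and 3.31 CPM in rapamycin, so the treatments overlapped. The log2 change in TE was 1.53 with an SE of 0.664 (edgeR unadjusted p = 0.0372, adjusted p = 0.360). It was 0.66 without rapamycin replicate 1, which held 36 of the 49 rapamycin reads. The unadjusted p was 0.167 in DESeq2's Wald test, 0.0745 in limma voom and 0.349 in edgeR's test of RF alone. In edgeR's TE test it was 0.0312 with a minimum of 1 count, 0.0486 with TMM over all libraries and 0.268 with a replicate block. In total RNA the 3 rapamycin libraries, 25.6 to 26.0 CPM, lay above the 3 DMSO libraries, 24.5 to 25.4 CPM, as in 8.08% of all genes, and the log2 difference was 0.05 (edgeR adjusted p = 0.762). In total RNA 0 of 13329 genes passed in either direction, a percentage called of 0 for both. Before adjustment, 3.24% of genes had a p under 0.05 with higher RNA and 2.63% with lower RNA, and by the Wald test of DESeq2 25 genes were higher and 4 lower.

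PDP2 (ENSG00000172840, chr16:66912492-66929657), the insulin-responsive phosphatase, had 1, 4 and 14 RF reads in DMSO and 14, 2 and 5 in rapamycin. Its level was 5.85 ± 3.29 CPM and 10.2 ± 7.17 CPM. The cultures overlapped, and the log2 change in TE was 0.20 with an SE of 0.679 (edgeR adjusted p = 0.933). The 2 phosphatases together gave 21.4, 5.01 and 17.6 RF CPM in DMSO and 41.3, 16.9 and 19.9 CPM in rapamycin, which also overlapped.

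The 3 subunits had the most RF reads of the 10. DLAT (ENSG00000150768, chr11:111896132-111935128), the E2 acetyltransferase that forms the core of the complex, had 27, 60 and 134 RF reads in DMSO and 79, 67 and 27 in rapamycin. These were 82.9 ± 7.78 CPM and 78.4 ± 12.2 CPM, close together in all 6 libraries whatever their depth. The log2 change in TE was -0.10 with an SE of 0.232 (edgeR adjusted p = 0.897), the smallest SE of the 10.

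PDHA1 (ENSG00000131828, chrX:19362011-19379836), the E1 alpha subunit that the kinases phosphorylate, had 15, 25 and 113 RF reads in DMSO and 79, 43 and 5 in rapamycin. Its level was 51.3 ± 23.1 CPM and 44.5 ± 25.2 CPM, with the lowest value, 16.5 CPM, in rapamycin replicate 3. The log2 change in TE was -0.03 with an SE of 0.479 (edgeR adjusted p = 0.987). PDHA1 was the 1 of the 10 whose total RNA was lower in all 3 rapamycin libraries, at 76.9, 71.1 and 76.7 CPM against 77.4, 81.6 and 79.7 CPM in DMSO, as in 6.76% of all genes. The smallest gap between the treatments was under 1 CPM, and the log2 difference was -0.09 (edgeR unadjusted p = 0.0601, adjusted p = 0.762).

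PDHB (ENSG00000168291, chr3:58413357-58419584, minus strand), the E1 beta subunit, had 17, 32 and 64 RF reads in DMSO and 98, 44 and 13 in rapamycin. Its RF level was 52.0, 40.1 and 43.4 CPM in DMSO and 81.0, 53.0 and 43.0 CPM in rapamycin. Rapamycin replicate 1 stood above the rest, and the other cultures overlapped. The log2 change in TE was 0.50 with an SE of 0.347 in edgeR (adjusted p = 0.587) and 0.61 in DESeq2's Wald test (adjusted p = 0.0332). On footprints alone the Wald test gave 0.42 with an unadjusted p of 0.400. Without rapamycin replicate 1 edgeR gave a TE change of 0.19. Summed over the 3 subunits, RF was 181, 147 and 211 CPM in DMSO and 212, 185 and 149 CPM in rapamycin.

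PDPK1 (ENSG00000140992, chr16:2587980-2653189), the AKT-activating kinase, had 0, 3 and 28 RF reads in DMSO and 31, 7 and 5 in rapamycin. These were 0, 3.76 and 19.0 CPM in DMSO and 25.6, 8.43 and 16.5 CPM in rapamycin. DMSO replicate 3 lay among the rapamycin cultures and the other DMSO cultures lay below all of them. The log2 change in TE was 0.62 with an SE of 0.594 (edgeR adjusted p = 0.708), 2.75 without DMSO replicate 3 and -0.18 without rapamycin replicate 1. Its total RNA was 28.5 ± 0.306 CPM in DMSO and 28.7 ± 0.543 CPM in rapamycin, a log2 difference of 0.01. So of the pair of kinases that share the name PDK1, the pyruvate dehydrogenase kinase had separated cultures and PDPK1 did not, and the difference between them was not tested. PDPK1 has a near-identical pseudogene copy and PDHA1 a retrogene, and since only uniquely aligned reads were counted, the levels of both genes are uncertain. PDK2, PDHA1 and DLAT share exonic sequence with a coding gene on the opposite strand, and whether strand was used in the counting is not given in the sources used here.

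**Figure D3:**
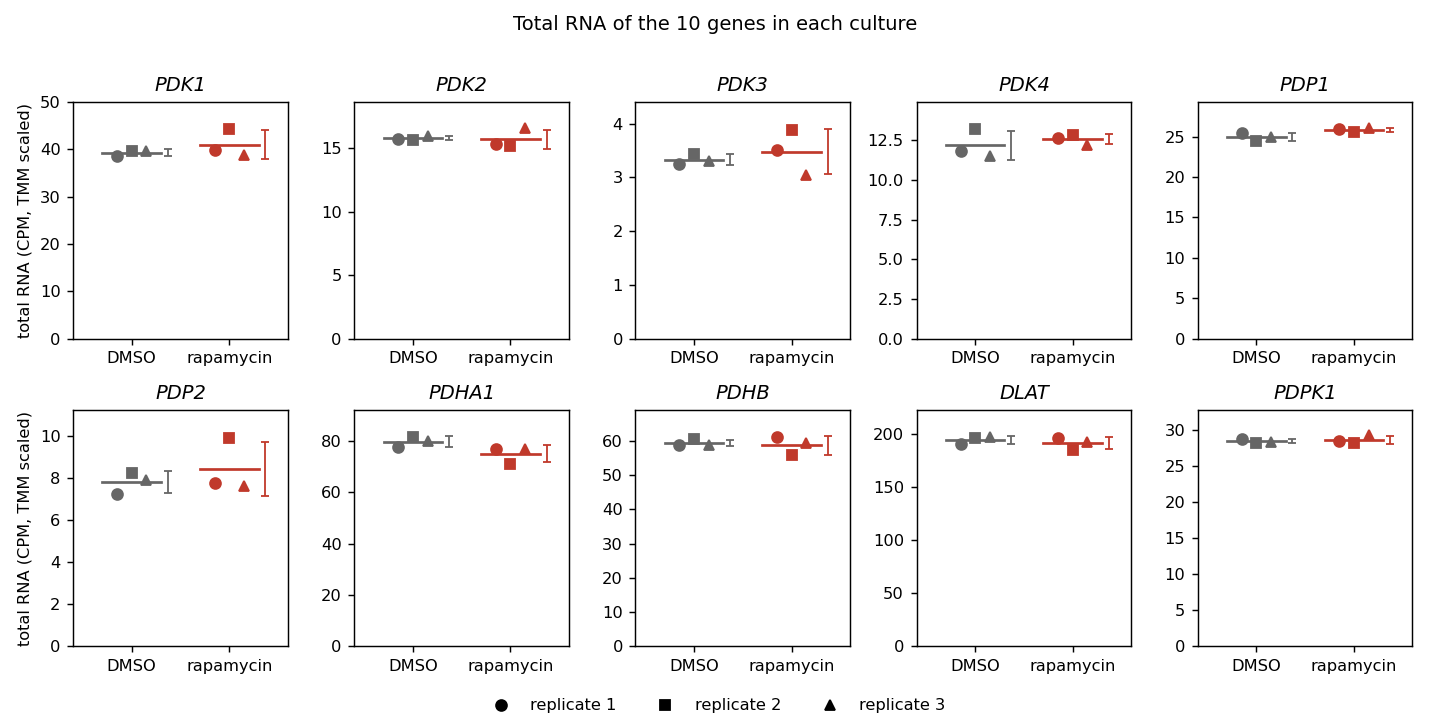
Total RNA of each gene in each culture (y axis, TMM-scaled CPM, linear, from 0), with means as lines and SD as bars. The treatments overlap in 8 panels, PDP1 is slightly higher in rapamycin and PDHA1 slightly lower, with log2 differences of 0.05 and -0.09.

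In total RNA the log2 difference was positive for 6 of the 10, beside 52.5% of all genes, with a median of 0.03, against 0.00 over all genes. The differences ran from -0.09 in PDHA1 to 0.11 in PDP2. In RF it was positive for 7 of the 10, beside 51.2% of all genes, with a median of 0.35, against 0.02 over all genes.

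Per length and by gene FPKM, the subunits were the most abundant, and the 4 PDK kinases lay between 1.62 and 13.4 FPKM in DMSO. In DMSO, PDHA1 had 89.9 ± 1.06 FPKM of total RNA, DLAT 57.8 ± 1.95 FPKM and PDHB 35.0 ± 1.28 FPKM. In gene FPKM, PDK2 led the kinases with 13.4 ± 0.216 FPKM, followed by PDK1 with 8.82 ± 0.499 FPKM. Of the PDK2 isoform FPKM in DMSO, a pair of transcripts with a retained intron held 28.4% and 21.4%. PDP1, with 6.97 ± 0.596 FPKM, and PDPK1, with 6.29 ± 0.864 FPKM, could not be ordered because their libraries overlapped, and neither could PDP2, with 3.07 ± 0.569 FPKM, and PDK4, with 2.88 ± 0.194 FPKM. PDK3 was the lowest with 1.62 ± 0.176 FPKM. No other neighbours in this order overlapped over the 6 libraries. The order is of gene FPKM, which includes transcripts not annotated as protein-coding. These had the largest share in PDHA1, DLAT and PDK2, whereas in PDHB the coding ENST00000302746 held 76.5% in DMSO. The order of the coding transcripts can therefore differ from this one and was not worked out.

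By their DMSO means, footprints followed an order other than that of gene FPKM. In DMSO, RF per kilobase of coding sequence was 51.0 CPM/kb for DLAT, 43.8 for PDHA1 and 41.9 for PDHB, then 33.7 for PDK2 and 11.3 for PDK3. Over the 6 libraries DLAT ranged from 40.2 to 55.8, PDHA1 from 14.1 to 65.4, PDHB from 37.3 to 75.2 and PDK2 from 22.5 to 53.6. The order among these genes is therefore not resolved. The length is that of 1 coding isoform per gene, and DLAT and PDK2 also expressed isoforms with longer coding sequences, 1941 and 1221 bases. PDK4 had 6.04 CPM/kb, PDP1 5.48, PDPK1 4.54, PDK1 3.70 and PDP2 3.69, and these 5 rest on 10 to 33 reads each, so their order is not resolved. PDK1 thus had rank 5 of the 10 in gene FPKM of total RNA and was among the 5 lowest in footprints.

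**Figure D4:**
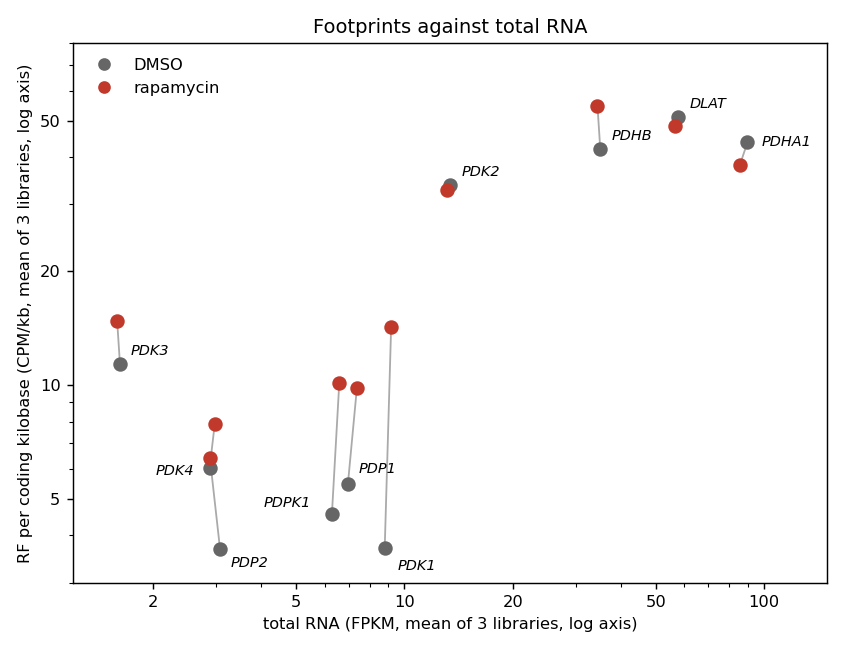
RF per kilobase of coding sequence (y axis, CPM/kb) against total RNA (x axis, FPKM) for each gene, both on log axes, as means of 3 libraries in DMSO (grey) and rapamycin (red), joined by a line. The lines run nearly upright, the longest being that of PDK1, which in DMSO lies at 8.82 FPKM and 3.70 CPM/kb.

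The isoform with the largest mean share was the same in both treatments for each gene named here. Shares are of the summed FPKM of a gene's isoforms that matched the annotation, and isoforms without a match were left out. The leading isoform of PDK1, ENST00000410055, held 40.3% of this sum in DMSO and 40.0% in rapamycin, and that of PDK4, ENST00000005178, 95.7% and 93.0%. In 3 genes a transcript not annotated as protein-coding had the largest mean share. In PDHA1 the leading pair, both with a retained intron, held 32.5% and 30.7% in DMSO. In DLAT a transcript annotated for nonsense-mediated decay held 53.1% in both treatments, ahead of the coding ENST00000393051 with 36.8% and 37.1%. In PDK2, a pair with a retained intron held 28.4% and 21.4% in DMSO, around the coding ENST00000007708 with 27.7%, which led in DMSO replicate 2, so the order of the leading PDK2 isoforms is not resolved. Such shares are estimates from short reads that isoforms have in common.

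The rest of pyruvate metabolism was represented by 21 further genes, of which 18 were tested. Of these, 0 passed the threshold in TE, 8 were higher and 10 lower, and the median log2 fold change was -0.11 against -0.06 over all genes. The smallest p belonged to PPM1K, the phosphatase that activates the branched-chain ketoacid dehydrogenase, a relative of the pyruvate dehydrogenase complex. It had 8, 156 and 93 RF reads in DMSO and 55, 23 and 2 in rapamycin, which overlap once scaled, and a log2 change in TE of -1.79 with an SE of 0.593 (edgeR adjusted p = 0.253). The next was BCKDK, the kinase that opposes PPM1K and is related in sequence to the PDK family, with 9, 28 and 21 RF reads in DMSO and 55, 40 and 15 in rapamycin. The log2 fold change of BCKDK in TE was 0.98 with an SE of 0.415 (edgeR adjusted p = 0.355). Its cultures did not overlap in TE, as in 3 of the 18 in the higher direction, beside 4.78% of all genes, and in 0 in the lower.

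Of 21 kinases that PDPK1 phosphorylates, 19 were tested and 0 passed, with 9 higher, 10 lower and a median log2 change in TE of -0.05. The smallest p was that of RPS6KB1, which encodes S6K1, with 5, 32 and 17 RF reads in DMSO and 0, 4 and 0 in rapamycin and an edgeR adjusted p of 0.232. RPS6KB2, which encodes S6K2, had 18, 39 and 77 RF reads in DMSO and 19, 34 and 7 in rapamycin, with a log2 change in TE of -0.97 (edgeR adjusted p = 0.358). Both had non-overlapping cultures, lower in rapamycin, as had 6.18% of all genes.

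Of 10 transcription regulators of the PDK genes, 9 were tested and 0 passed, with 4 higher, 5 lower and a median log2 change in TE of -0.37. ESRRA, an orphan nuclear receptor that acts on PDK4, had 1, 1 and 12 RF reads in DMSO and 23, 11 and 10 in rapamycin, and its log2 change was 1.94 with an SE of 0.606 (edgeR adjusted p = 0.238). ARNT, the partner of HIF1A, which acts on PDK1, had 14, 91 and 30 RF reads in DMSO and 18, 13 and 1 in rapamycin, with a log2 change of -2.07 and an SE of 0.695 (edgeR adjusted p = 0.260). HIF1A itself stood at 0.02.

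Among the 6131 genes with at least 100 RF reads, those whose log2 TE over the 6 cultures was most like that of PDK1 included IER5 and PRDX5, with Pearson's r of 0.987 and 0.978. For PDPK1 the closest were RB1CC1, HAGH and SIN3B, with r of 0.998, 0.978 and 0.977. Among the 10 genes themselves, r with PDK1 was 0.892 for PDHB, 0.827 for PDP1, 0.344 for PDPK1 and -0.41 for PDK2. With 6 points, in which each culture brings the depth of its own RF library to every gene, and with the best matches picked from all genes searched, these values are a description.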

How the data were processed

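RF and total RNA were measured in PANC-1 cells, and samples were grouped from their labels. The authors deposited raw counts: RF reads were filtered on quality, trimmed, freed of ribosomal RNA and aligned to GRCh37 with HISAT2, and reads with a unique alignment were counted over the exons of protein-coding genes with featureCounts. The authors deposited FPKM values of total RNA for genes and isoforms, made with Cufflinks 2.2.1 and Cuffnorm. Columns holding the authors' TE ratios, log2 fold changes and p-values were not used.

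The tools were DESeq2 1.42.0, limma 3.58.1 and edgeR 4.0.16 under R 4.3.3, and scipy 1.17.1 and pandas 2.3.3 under Python 3.11. TMM factors were computed separately for RF and for RNA. Testing covered the 13329 genes that reached 10 counts in the sum of the RF libraries and 10 in that of the RNA libraries, with edgeR's quasi-likelihood test at a Benjamini-Hochberg adjusted p of 0.05 over all of them: TE as the interaction of library type and treatment over all 12 libraries, RF and RNA alone for treatment. All 10 genes described passed this filter. The biological coefficient of variation was 24.4% in the joint model, 54.9% in RF and 5.31% in RNA. The joint model thus understates the spread of RF, and its TE p-values can be too small. A prior count of 2 entered the log2 TE of each culture. The quasi-likelihood test gives no SE, so each edgeR SE is the absolute log2 fold change over the square root of its F statistic. The tests were also run on simulated counts. A count of 0 genes called does not show that no gene changed.

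Coding length is that of the coding isoform with the most FPKM in the GENCODE annotation of GRCh37, in place of the RefSeq protein length first planned. Of 214292 isoforms, 182638 matched this annotation by identifier. The sequence of PDP1 is not shown.

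The genes named are the 10, the 2 with the smallest p in TE of each further list, and the 3 most like PDK1 and PDPK1, of which 1 is not reported here. RAI1, HIF1A and the markers were named outside this rule after their values were seen. The genes and lists were chosen with earlier results of these data known. Alternatives were DESeq2's size factors and Wald test, limma voom, other minimum counts, TMM over all libraries at once, limma on log2 FPKM, replicate and culture blocks, and leaving out each culture. Leaving out both shallowest RF cultures was chosen after seeing the data.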

Additional observations from a re-analysis of the deposited data

How the results depend on the processing

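The genes had 40 to 394 RF reads over 6 libraries, and the biological coefficient of variation in RF was 54.9%. The TE change of PDK1 stayed positive under every alternative, between 1.86 and 2.73 with 1 culture left out, and of these edgeR fits the smallest adjusted p was 0.105. DESeq2's Wald test brought PDK1, at 2.46, and PDHB, at 0.61, past the threshold. It called 654 genes higher and 582 lower in TE, 4 and 1 in RF, and 25 and 4 in total RNA. With 1 culture left out, 0 to 70 genes were called higher and 0 to 374 lower in TE, the most without DMSO replicate 3, 0 to 5 and 0 to 1 in RF, and 0 to 875 and 0 to 6 in RNA, the most again without DMSO replicate 3. In RF, 10 genes were called higher and 10 lower with a minimum of 1 count, and 0 higher with DESeq2's size factors or without both shallowest cultures. In RNA, limma on log2 FPKM called 1 gene higher at each of 3 settings. Whether the replicate numbers pair the cultures across treatments was not settled. Across 6131 genes, deviations of same-numbered libraries correlated at -0.19 to -0.09 in RF and -0.23 to -0.08 in RNA. Those of RF with RNA of the same number correlated at -0.07 to 0.03. Deviations within so few libraries, shallow in RF, cannot exclude a pairing. The replicate block gave 4 RF genes higher and 2 lower, and put the TE change of PDK1 at 2.19 (adjusted p = 0.717) and of PDK3 at 0.16. The culture block put PDK1 at 2.14 (adjusted p = 1), PDK2 at 0.0039, PDK3 at 0.22 and PDK4 at 0.76. Other TE changes of sign were PDK3 at 0.061 with DESeq2's size factors and 0.12 with a minimum of 50 counts, PDK4 at 0.065 with DESeq2's Wald test and 0.67 with limma voom, and, without both shallowest cultures, PDP2 at -0.16 and PDHA1 at 0.21. That setting also turned RF in PDK3 to -0.23, PDK4 to -1.30, PDP2 to -0.043 and PDHA1 to 0.10. With 1 culture left out, TE spanned -0.49 to 0.45 for PDK2, -0.33 to 0.54 for PDK3, -1.59 to 11.18 for PDK4, -0.40 to 0.88 for PDP2, -0.37 to 0.53 for PDHA1, -0.20 to 0.043 for DLAT and -0.18 to 2.75 for PDPK1. RF spanned -0.42 to 0.46 for PDK2, -0.045 to 0.73 for PDK3, -0.84 to 5.64 for PDK4, -0.54 to 0.28 for PDHA1 and -0.19 to 0.015 for DLAT. RNA spanned -0.050 to 0.015 for PDK2, -0.023 to 0.15 for PDK3, -0.022 to 0.18 for PDP2, -0.047 to 0.019 for PDHB and -0.0053 to 0.020 for PDPK1. On log2 FPKM, RNA of PDK3 was -0.016 and of PDP2 -0.062, or -0.024 and -0.078 with a pseudocount of 0.1, and with a minimum of 1 count PDPK1 was at -0.0056. The causes were not tested.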
